A study of Mus musculus with 21 samples.

Results

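The imprinted growth genes were 10 genes whose activity depends on the parent an allele came from: the insulin-like growth factor gene Igf2, its receptor gene Igf2r, and H19, Cdkn1c, Grb10, Plagl1, Dlk1, Meg3, Peg3 and Mest. They were taken by symbol from 37620 genes of an RNA-seq table, in which each symbol named 1 row. The rule for this choice used no measured value, but it was made with earlier results of these data known. The table covers 12 libraries from enriched germ cells of C57BL/6J (B6) males aged 12 days post-partum, when the earliest germ cells have entered meiotic prophase. Each library carries 1 of 4 sample numbers (186wt, 343wt, 444wt or 456wt), and every number has 3 libraries. All 4 have the same strain, age and cell label and no treatment, so the comparisons below are between samples of 1 kind. Values were averaged within a number, and each mean ± SD is over the 4 numbers. Nothing in the labels says whether the 3 libraries of a number came from separate animals or from 1 RNA. The paper describes RNA from 4 replicates of germ cells, which is also the count of sample numbers. The p-values therefore measure only the spread between these libraries, which may be technical, and not that between animals.

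In most mammalian tissues Igf2, Dlk1, Peg3, Mest and Plagl1 are transcribed from the paternal allele, and H19, Igf2r, Meg3 and Cdkn1c from the maternal one, while Grb10 switches parent between brain and other tissues. IGF2 drives growth, the IGF2 receptor carries it to the lysosome for degradation, and CDKN1C and GRB10 restrain the cell cycle and insulin and IGF receptor signalling. Germ cells erase these parental marks early and set new ones by sex, and in the male germ line the marks near H19 and between Dlk1 and Meg3 are set before birth. The values below are totals over both alleles, and the parent of origin was not measured.

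All 10 genes had a mean above 5.01 FPKM, the median of the 20795 genes whose mean reached 0.1 FPKM. FPKM are fragments scaled to transcript length and library size, so levels can be set side by side between genes. In single samples, Mest in 186wt (4.13 FPKM) and 456wt (4.99 FPKM) and Cdkn1c in 186wt (4.79 FPKM) were below that median. The median of the 10 means was 18.4 FPKM. Dlk1, Meg3 and H19 were also in the top quartile, which began at 21.1 FPKM. Dlk1 had the highest level with 41.9 ± 12.3 FPKM (SD, n = 4). Next came Meg3 with 25.9 ± 6.92 FPKM and H19 with 25.6 ± 9.30 FPKM. Igf2 with 20.1 ± 3.42 FPKM and Igf2r with 19.7 ± 1.81 FPKM stood close together in the middle. Grb10 came below them with 17.1 ± 2.02 FPKM and Peg3 with 14.4 ± 2.49 FPKM. Plagl1 with 7.59 ± 1.19 FPKM, Cdkn1c with 6.51 ± 1.47 FPKM and Mest with 5.22 ± 0.845 FPKM were lowest. In this order only Peg3 and Plagl1 were neighbours whose 4 values did not overlap. Within each number, however, Dlk1 exceeded Meg3, H19 exceeded Igf2, Igf2r exceeded Grb10 and Cdkn1c exceeded Mest in 4 of 4 samples, whereas Meg3 and H19 each exceeded the other in 2 samples.

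**Figure D1:**
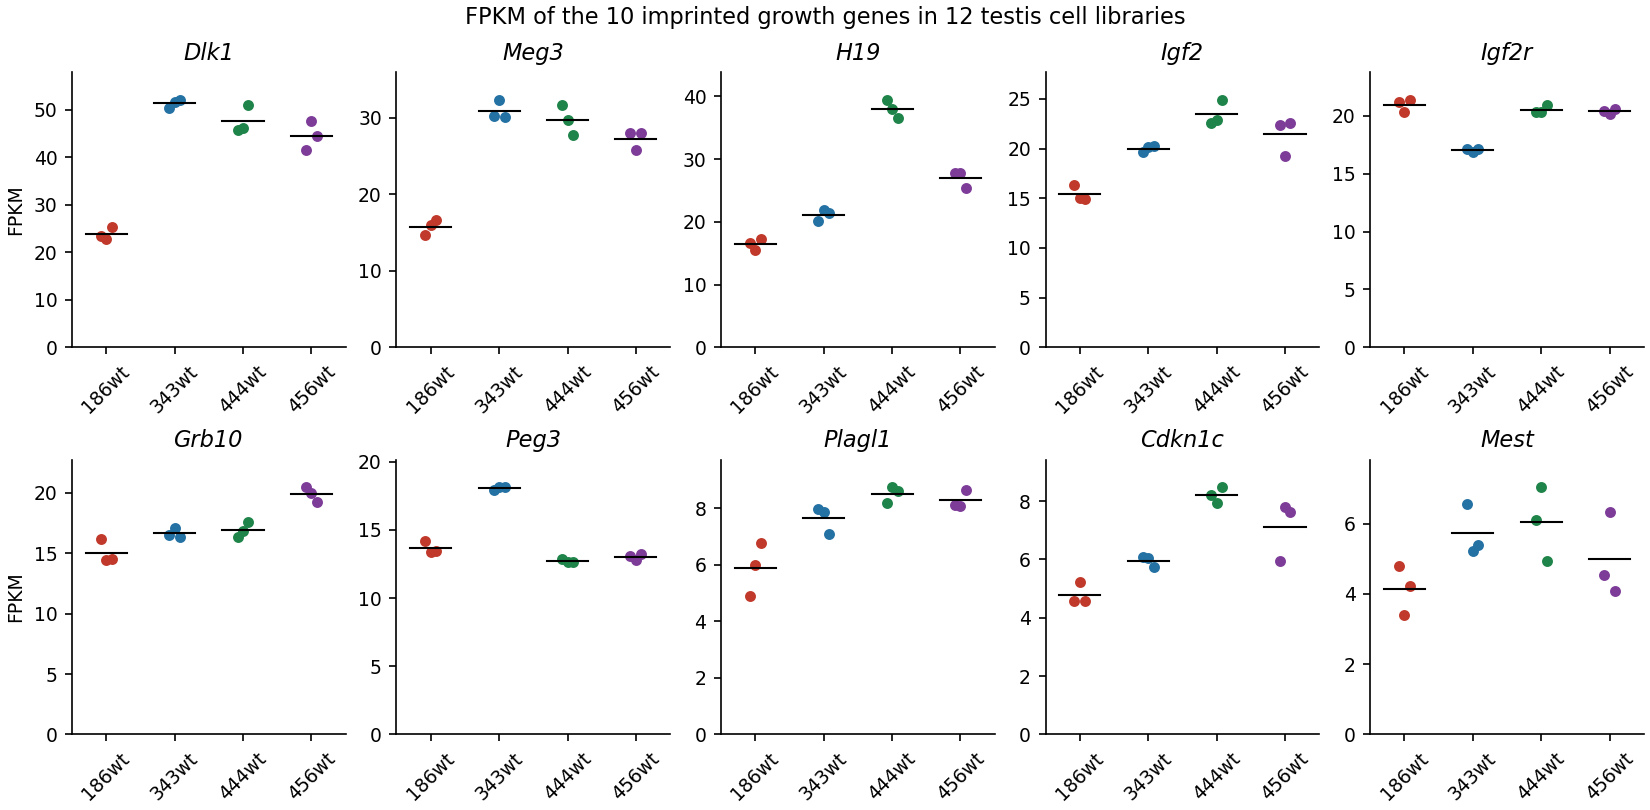
FPKM (vertical axes, from 0) of the 10 imprinted growth genes by sample number, in order of mean level, with a point for each library and a bar at the mean of its 3 libraries. The 3 points of 186wt lie below all others for 7 genes, among them Dlk1, Meg3 and H19, while Peg3 is highest and Igf2r lowest in 343wt.

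Of the 10 genes, 9 differed between the 4 sample numbers (limma F-test on log2(FPKM + 0.1), adjusted p under 0.05 over all genes tested), the exception being Mest. The same test called 58.2% of all 20795 genes, so that differences between these samples were common. With a minimum of 1 FPKM, reached by 14347 genes besides any 1 member, 11136 genes were called, which is a larger share. All 10 members passed this minimum, and 9 were again called, so that 9 of 10 is not read as an excess over 58.2%. The range from the lowest to the highest number, on the log2 scale, had a median of 0.57 over the members and 0.55 over all genes tested. H19 and Dlk1 had a range of at least 1 with an adjusted p under 0.05, as did 10.5% of all genes.

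**Figure D2:**
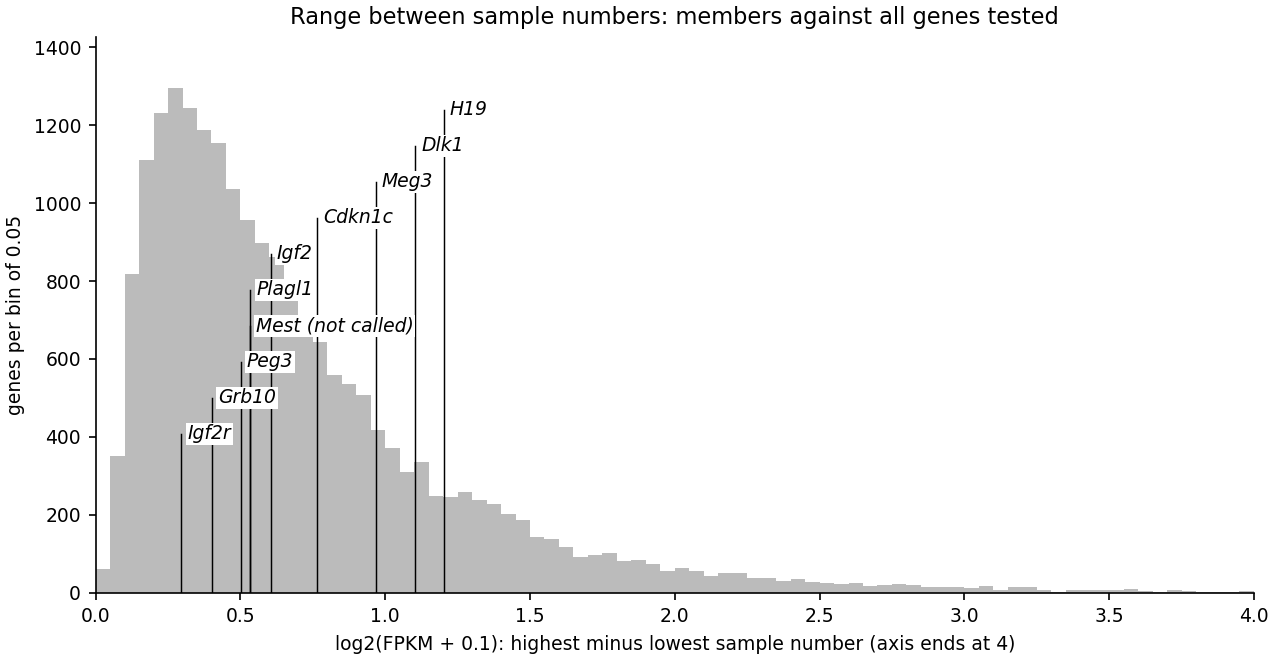
Range of log2(FPKM + 0.1) between the highest and the lowest sample number (horizontal axis) for all 20795 genes tested (grey histogram, genes per bin on the vertical axis) and the 10 members (labelled lines, whose height has no meaning). H19 lies farthest right, followed by Dlk1 at 1.10 and Meg3 at 0.97, while Igf2r lies at 0.30 and the others near the bulk of genes.

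The sample 186wt had the lowest mean of 8 of the 10 members, and 27.8% of all genes tested were lowest there. For 7 members, namely H19, Igf2, Cdkn1c, Grb10, Plagl1, Dlk1 and Meg3, each library of 186wt was below each of the other 9 libraries, which held for 6.76% of all genes tested. The exceptions were Mest, whose libraries overlapped, Peg3, which was lowest in 444wt, and Igf2r, which was lowest in 343wt. When 186wt was left out, 7 of the 10 members were still called against 54.3% of all genes.

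Igf2 lies on chromosome 7 (NCBI build 37), minus strand, from 149836673 to 149852721. It measured 16.3, 15.0 and 14.9 FPKM in the libraries of 186wt and 19.6, 20.1 and 20.3 FPKM in those of 343wt. In 444wt it was at 22.5, 22.9 and 24.9 FPKM and in 456wt at 22.4, 19.3 and 22.6 FPKM. Thus 186wt stood below the others without overlap, while 456wt overlapped both 343wt and 444wt. The highest mean was 1.52 times the lowest (adjusted p = 4.19e-05), and in order of level only 343wt and 186wt were neighbours that differed, by 0.38 ± 0.06 on the log2 scale (SE, adjusted p = 0.00157). Without 186wt the range of Igf2 fell from 0.60 to 0.23 (adjusted p = 0.0351). The annotation places the antisense RNA gene Igf2as over Igf2, and it was listed at 1.09 FPKM. A strand setting is not stated for these values, so reads of such partners cannot be told apart.

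H19, a maternally expressed long non-coding RNA that shares enhancers with Igf2, lies at 149761434 to 149764048 on chromosome 7 (minus strand). Its libraries measured 16.7, 15.5 and 17.2 FPKM in 186wt and 20.1, 21.8 and 21.4 FPKM in 343wt. They measured 39.5, 37.9 and 36.6 FPKM in 444wt and 27.8, 27.8 and 25.4 FPKM in 456wt. No libraries of different numbers overlapped. H19 had the largest range of the 10 genes, with 2.31 times as much in 444wt as in 186wt (adjusted p = 2.43e-08). It was the only member for which all 3 neighbouring pairs differed. These pairs were 0.49 ± 0.05 apart on the log2 scale between 444wt and 456wt (SE, adjusted p = 3.57e-05), 0.35 ± 0.05 between 456wt and 343wt (adjusted p = 0.000197) and 0.36 ± 0.05 between 343wt and 186wt (adjusted p = 0.000600). Over all members 11 of 30 neighbouring pairs differed, and over all genes tested 20.8% did.

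The H19 transcript contains the hairpin of the microRNA gene Mir675, which was listed at 0 FPKM in this table of gene-level values. The libraries were made from fragmented mRNA and not for short RNAs, so that this 0 is not read as absence of the microRNA. Its mature forms are shown because they are short RNAs made from H19, the member with the largest range, with the seed (bases 2 to 8) in capitals. They lie on the minus strand of GRCm38.p6 at chr7:142577112-142577133 (5p) and chr7:142577078-142577099 (3p), and their seeds differ.
mmu-miR-675-5p: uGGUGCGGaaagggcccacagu
mmu-miR-675-3p: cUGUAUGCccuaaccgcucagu

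The ratio of H19 to Igf2 asks whether these neighbours kept step. It was 1.02, 1.03 and 1.16 in the libraries of 186wt and 1.02, 1.09 and 1.06 in those of 343wt. It was 1.75, 1.66 and 1.47 in 444wt and 1.24, 1.44 and 1.13 in 456wt. The ratio was therefore near equality in 186wt and 343wt and highest in 444wt, whose libraries did not overlap those of any other number. Over the 4 numbers it was 1.25 ± 0.263 (SD, n = 4), and it differed between them (two-sided exact permutation test over 15400 assignments, p = 0.00188, adjusted p = 0.00282 over 3 ratios). This rested on 444wt, since without it the exact permutation p was 0.0679.

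Igf2r, on chromosome 17 from 12875272 to 12962530 (minus strand), encodes the receptor that clears IGF2. It measured 21.2, 20.3 and 21.4 FPKM in 186wt and 17.1, 16.9 and 17.2 FPKM in 343wt. It measured 20.4, 20.3 and 20.9 FPKM in 444wt and 20.4, 20.1 and 20.6 FPKM in 456wt. Igf2r had the smallest range of the 10 genes, and 343wt alone stood apart, below every other library, as 8.28% of all genes did. The gap between 343wt and 456wt, the next in order, was 0.26 ± 0.03 on the log2 scale (SE, adjusted p = 3.76e-05). Among the other 3 numbers Igf2r was not called (adjusted p = 0.567, range 0.04). Airn, the antisense RNA that overlaps Igf2r on the plus strand, was at 1.33 ± 0.413 FPKM and did not pass the test (adjusted p = 0.0762). Its transporter neighbours Slc22a2 and Slc22a3 were below 0.1 FPKM.

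The ratio of ligand to receptor was lowest in 186wt. The ratio of Igf2 to Igf2r was 0.770, 0.738 and 0.695 in the libraries of 186wt and from 0.958 to 1.19 in the other 9. It was 1.02 ± 0.200 over the 4 numbers (SD, n = 4) and differed between them (two-sided exact permutation test, p = 0.000390, adjusted p = 0.00117 over 3 ratios). Without 186wt the range of this ratio fell from 0.68 to 0.16 on the log2 scale, with an exact permutation p of 0.0214.

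**Figure D3:**
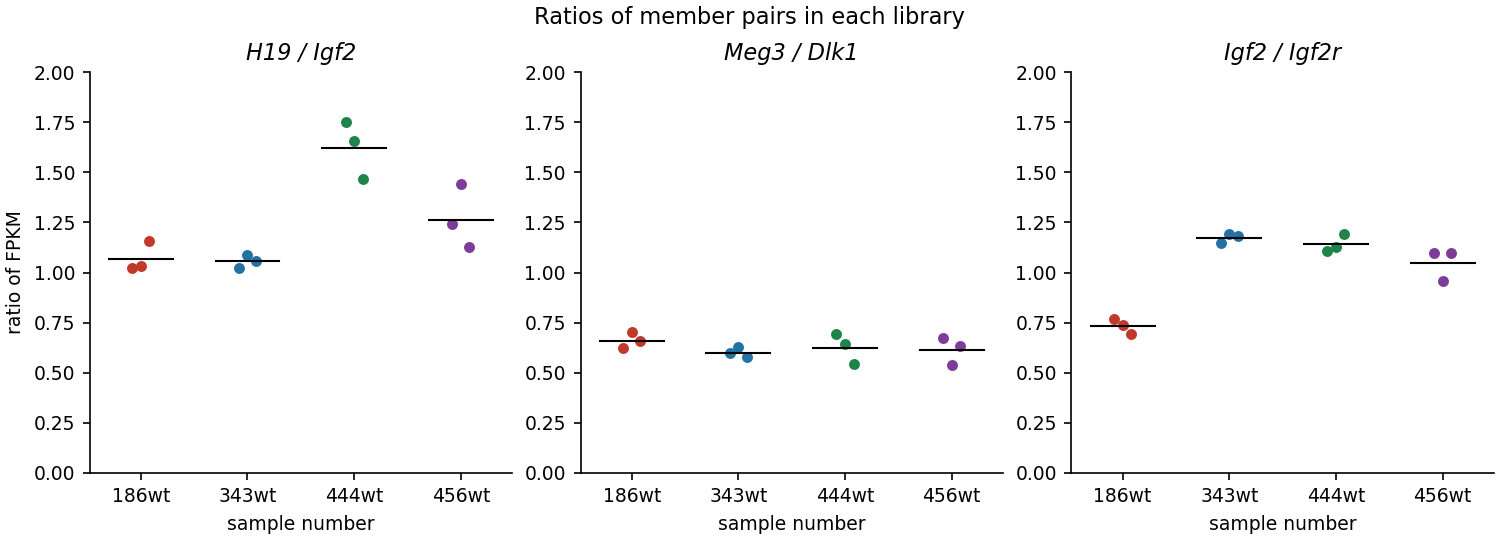
Ratio of FPKM (vertical axes, from 0 to 2) of H19 to Igf2, Meg3 to Dlk1 and Igf2 to Igf2r in each library (points) by sample number, with bars at the geometric mean of 3 libraries. H19 to Igf2 is highest in 444wt at 1.62, Igf2 to Igf2r is lowest in 186wt at 0.734, and Meg3 to Dlk1 stays between 0.541 and 0.701 in all 12 libraries.

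Dlk1, which encodes a transmembrane protein related to Notch ligands, and Meg3, a long non-coding RNA, lie on the plus strand of chromosome 12 at 110691033 to 110701546 and 110779211 to 110809936. Dlk1 measured 23.5, 22.8 and 25.4 FPKM in 186wt and 50.5, 51.6 and 52.1 FPKM in 343wt. It measured 45.8, 46.1 and 51.0 FPKM in 444wt and 41.6, 47.7 and 44.4 FPKM in 456wt. The libraries of 186wt thus lay far below the other 9, among which 444wt overlapped both 343wt and 456wt. The step from 186wt to 456wt, the next in order, was 0.89 ± 0.06 on the log2 scale (SE, adjusted p = 2.02e-07). No other neighbouring pair of numbers was called for Dlk1 (adjusted p from 0.132 to 0.244).

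Meg3 had the same order of samples. It measured 14.6, 16.0 and 16.7 FPKM in 186wt and 30.2, 32.3 and 30.1 FPKM in 343wt. It measured 31.7, 29.7 and 27.7 FPKM in 444wt and 28.0, 25.8 and 28.0 FPKM in 456wt. The step from 186wt to 456wt was 0.79 ± 0.06 on the log2 scale (SE, adjusted p = 1.04e-06), and again no other neighbouring pair was called. Without 186wt the ranges were 0.21 for Dlk1 (adjusted p = 0.0263) and 0.18 for Meg3, which was then no longer called (adjusted p = 0.0550).

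The ratio of Meg3 to Dlk1 was 0.659 in 186wt, 0.600 in 343wt, 0.623 in 444wt and 0.613 in 456wt. It was 0.624 ± 0.0254 (SD, n = 4) while the highest number was 2.15 times the lowest for Dlk1 and 1.96 times for Meg3. No difference in the ratio was detected (two-sided exact permutation test, p = 0.641, smallest possible p = 6.49e-05), and the largest and the smallest number differed by 0.14 on the log2 scale. Each gene was also the nearest match of the other among 14347 genes whose mean reached 1 FPKM, by the root mean square difference of their log2 values over 12 libraries after centring (0.12). The next in likeness were Klf4 and Alox12b for both, with 0.16 and 0.19 for Dlk1 and 0.15 and 0.14 for Meg3. The libraries of a number may share 1 RNA, so this likeness is given as a description.

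Within the same region the non-coding RNA gene Rian was at 5.39 FPKM in 186wt, 8.24 in 343wt, 9.06 in 444wt and 8.02 in 456wt, and it differed between numbers with 186wt lowest (adjusted p = 2.36e-05). Mirg with 0.551 FPKM (adjusted p = 0.941) and the deiodinase gene Dio3 with 0.751 FPKM (adjusted p = 0.110) did not pass the test, and Rtl1, a retrotransposon-derived gene, was below the minimum at 0.0658 FPKM. The microRNA genes Mir770 and Mir1906-1 inside Meg3 were listed at 0, which for the same reason as with Mir675 is not read as absence.

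**Figure D4:**
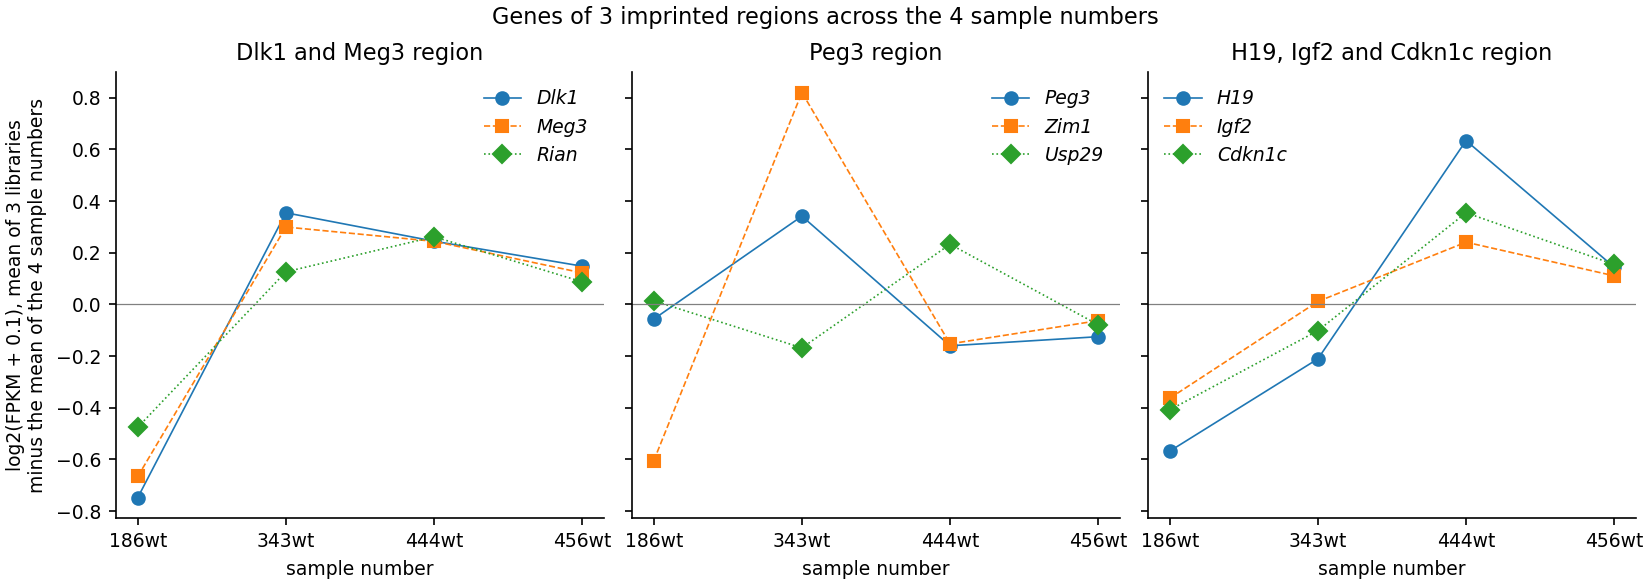
Level of genes of 3 imprinted regions by sample number, as log2(FPKM + 0.1) averaged over 3 libraries minus the mean over the 4 numbers (vertical axis), with lines that join the points of 1 gene and mark no order. Dlk1, Meg3 and Rian share a low value in 186wt, Peg3 and Zim1 share a high value in 343wt, and H19, Igf2 and Cdkn1c have the same order of samples, with H19 ranging most.

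The promoters of Dlk1 and Meg3 are shown because these genes kept a near-constant ratio, and those of Peg3 and Igf2r because these were the members that set 343wt apart. Each line holds the 250 bases before the transcription start, 5′ to 3′ along the gene, with CG dinucleotides, the sites of DNA methylation, in capitals. The sequences are from RefSeq on GRCm38.p6, at chr12:109452573-109452822 (plus strand) for Dlk1, chr12:109540746-109540995 (plus) for the upstream start of Meg3, chr7:6730420-6730669 (minus) for Peg3 and chr17:12769707-12769956 (minus) for Igf2r.
Dlk1: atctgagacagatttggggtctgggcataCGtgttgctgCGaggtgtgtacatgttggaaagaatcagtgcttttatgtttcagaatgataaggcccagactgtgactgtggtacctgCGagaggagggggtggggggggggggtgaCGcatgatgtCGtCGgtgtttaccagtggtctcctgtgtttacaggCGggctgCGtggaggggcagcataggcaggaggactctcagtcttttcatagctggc
Meg3: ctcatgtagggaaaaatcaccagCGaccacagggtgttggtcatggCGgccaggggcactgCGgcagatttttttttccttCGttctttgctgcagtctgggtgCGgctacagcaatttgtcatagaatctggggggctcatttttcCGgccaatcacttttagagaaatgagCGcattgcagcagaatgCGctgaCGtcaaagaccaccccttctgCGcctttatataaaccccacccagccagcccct
Peg3: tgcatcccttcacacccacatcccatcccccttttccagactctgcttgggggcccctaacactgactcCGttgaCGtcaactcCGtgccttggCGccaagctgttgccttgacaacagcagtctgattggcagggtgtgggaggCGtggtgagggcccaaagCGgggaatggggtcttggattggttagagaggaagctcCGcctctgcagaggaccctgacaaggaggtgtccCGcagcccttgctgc
Igf2r: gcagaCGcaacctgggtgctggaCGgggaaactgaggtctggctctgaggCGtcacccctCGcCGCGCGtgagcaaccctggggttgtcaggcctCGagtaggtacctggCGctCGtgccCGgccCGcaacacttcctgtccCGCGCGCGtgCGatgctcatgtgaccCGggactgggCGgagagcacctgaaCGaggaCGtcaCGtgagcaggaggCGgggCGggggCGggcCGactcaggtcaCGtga
RefSeq windows of 300 bases, from 250 before to 50 after a start, were matched for 8 members with 15 starts, and H19 and Cdkn1c had none. The windows of members held a median of 13 CG dinucleotides against 7 over all 32851 windows, from 1 at the downstream start of Meg3 to 45 at a start of Grb10. Dlk1 had 9, the upstream start of Meg3 and Peg3 had 13 each, and Igf2r had 34. The palindrome TGACGTCA, searched on both strands after the sequences had been seen, occurred in the windows of Meg3 and Peg3 and in 1.79% of all windows. TATAAA or its reverse complement occurred in the window of Meg3, not in that of Dlk1, and in 13.6% of all windows. These matches describe the letters in the windows only.

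Peg3, on chromosome 7 from 6656603 to 6683132 (minus strand), encodes a large zinc finger protein expressed from the paternal allele. It measured 14.2, 13.4 and 13.5 FPKM in 186wt and 17.9, 18.2 and 18.1 FPKM in 343wt. It measured 12.9, 12.7 and 12.7 FPKM in 444wt and 13.1, 12.8 and 13.3 FPKM in 456wt. All libraries of 343wt were above every other library, as for 5.81% of all genes, and the others lay closer together. The difference of 343wt from 186wt, the next in order, was 0.40 ± 0.03 on the log2 scale (SE, adjusted p = 1.18e-05). The libraries of 186wt lay above those of 444wt and 456wt. The pair of 186wt and 444wt was called (adjusted p = 0.0327), and that of 186wt and 456wt was not (adjusted p = 0.146). Without 343wt Peg3 was not called (adjusted p = 0.125). Its neighbour Zim1, another zinc finger gene, was also highest in 343wt, with 3.06 FPKM against 1.08 in 186wt, 1.51 in 444wt and 1.61 in 456wt (adjusted p = 4.97e-05). Usp29, which lies beside them and encodes a ubiquitin protease, was at 0.488 FPKM and was not called (adjusted p = 0.561).

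Cdkn1c, on chromosome 7 from 150644255 to 150646955 (minus strand), encodes the cyclin-dependent kinase inhibitor p57. It measured 4.58, 5.22 and 4.57 FPKM in 186wt and 6.07, 6.03 and 5.74 FPKM in 343wt. It measured 8.19, 7.92 and 8.48 FPKM in 444wt and 5.94, 7.80 and 7.63 FPKM in 456wt. The libraries of 444wt were above all others, as for 11.5% of all genes, those of 186wt were below all others, and 343wt and 456wt overlapped. The mean was 1.71 times as high in 444wt as in 186wt (adjusted p = 0.000188). Only the step from 186wt to 343wt was called among neighbours, with 0.31 ± 0.10 (SE, adjusted p = 0.0444). The nearest genes in likeness were Fdps, Gmnn and Gm41, each with a root mean square difference of 0.09, and those of H19 were 4930452B06Rik with 0.11 and Syce1l and Gm6880 with 0.12 each.

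Grb10, on chromosome 11 from 11830511 to 11938686 (minus strand), encodes an adaptor that binds the insulin and IGF1 receptors and restrains their signalling. It measured 16.2, 14.4 and 14.5 FPKM in 186wt and 16.5, 17.1 and 16.3 FPKM in 343wt. It measured 16.4, 16.8 and 17.6 FPKM in 444wt and 20.5, 20.0 and 19.2 FPKM in 456wt. The libraries of 456wt were above all others, which held for 9.18% of all genes. The step from 444wt to 456wt was called, with 0.23 ± 0.05 (SE, adjusted p = 0.00484), and that from 186wt to 343wt was not (adjusted p = 0.0580). Its neighbour Ddc, the aromatic amino acid decarboxylase gene, was at 0.819 FPKM and was highest in 444wt (adjusted p = 0.00424).

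Plagl1, on chromosome 10 from 12810497 to 12851500 (plus strand), encodes a zinc finger transcription factor. It measured 4.91, 5.99 and 6.79 FPKM in 186wt and from 7.08 to 8.76 FPKM in the other 9 libraries. The libraries of 186wt were below all others, and 444wt and 456wt overlapped while 343wt lay just below them. Plagl1 differed between numbers (adjusted p = 0.00219), and not once 186wt was left out (adjusted p = 0.126).

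Mest, on chromosome 6 from 30673547 to 30698457 (plus strand), encodes a protein of the alpha/beta hydrolase fold. It measured 4.78, 3.39 and 4.23 FPKM in 186wt, 6.56, 5.23 and 5.38 in 343wt, 6.11, 7.04 and 4.94 in 444wt and 4.55, 6.34 and 4.09 in 456wt. All numbers overlapped with at least one other, and the libraries of 1 number varied more than for any other member, with a median coefficient of variation of 17.2%. Over the 4 numbers Mest was not called (adjusted p = 0.0883, range 0.53). The single pair of 186wt and 444wt was called (adjusted p = 0.0359), and the test over numbers called Mest without 456wt (adjusted p = 0.0366). Copg2, a coat protein gene on the opposite strand that overlaps Mest, was at 52.5 ± 2.14 FPKM and was not called (adjusted p = 0.138). How far its reads enter the value of Mest was not tested.

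Other imprinted genes were counted from a list of 52 non-members in the table, of which 43 had a mean of at least 0.1 FPKM. Of these 30 (69.8%) differed between the numbers against 58.2% of all genes, with a median range of 0.52. With a minimum of 1 FPKM, which fewer of the 43 reached, 26 were called. Over all genes, 14347 besides any 1 member reached that minimum and 11136 were called, a share larger than 58.2%. The 69.8% is therefore not read as an excess. The highest levels were those of Gnas, the stimulatory G protein gene, with 299 ± 60.3 FPKM, the tetraspanin gene Cd81 with 189 ± 23.0 FPKM, the nucleosome assembly gene Nap1l4 with 112 ± 9.81 FPKM and the proteoglycan gene Dcn with 62.6 ± 30.6 FPKM. In the region of H19, Igf2 and Cdkn1c, the transcription factor gene Ascl2 and the growth restraining gene Phlda2 were higher in 444wt and 456wt, with 6.89 and 6.75 FPKM and 4.11 and 3.86 FPKM, than in 186wt and 343wt, with 4.27 and 4.50 FPKM and 2.57 and 2.47 FPKM. Both differed between numbers (adjusted p = 7.86e-05 and 0.00784). Of the other genes of this region, Tssc4 with 29.9 FPKM, Osbpl5 with 17.9 FPKM and Slc22a18 with 0.341 FPKM differed between numbers, Kcnq1 and Tspan32 at 0.161 and 0.1 FPKM did not pass the test, and Th was below the minimum. Klf14, near Mest, was also below it. Ins2, the insulin gene next to Igf2, was at 4.42 FPKM in 186wt, 3.29 in 343wt, 2.84 in 444wt and 1.5 in 456wt (adjusted p = 0.000207), so that it was highest where Igf2 was lowest.

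Partners of the IGF pathway were counted from a list of 19 genes, of which 16 were tested. All 16 differed between the numbers against 58.2% of all genes, with a median range of 0.78 against 0.55. All 16 were also called with a minimum of 1 FPKM. That minimum was reached by 14347 genes besides any 1 member, and 11136 genes were called. This share is larger than 58.2%, so that 16 of 16 is not read as an excess. The 4 highest levels of the list belonged to genes named for insulin-like growth factor binding proteins. Igfbp7 was at 89.2 FPKM in 186wt, 98.2 in 343wt, 85.6 in 444wt and 193 in 456wt (adjusted p = 9.25e-12). Igfbp6 reached 84.0 FPKM in 456wt, also its highest, and lay between 38.4 and 47.7 FPKM elsewhere (adjusted p = 9.64e-09). Igfbp2 was at 54.1 ± 9.05 FPKM and Igfbp4 at 37.1 ± 14.0 FPKM, and Igfbp1 was listed at 0 in all 12 libraries. The signalling receptor gene Igf1r, named here after its values were seen, was at 25.4 ± 2.11 FPKM, with 23.1 FPKM in 186wt, 24.4 in 343wt, 26.2 in 456wt and 28.0 in 444wt (adjusted p = 0.000204).

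Of 10 genes for proteins that read or guard imprints, 9 differed between the numbers against 58.2% of all genes. Their median range was 0.43, below the 0.55 of all genes. All 10 had a mean of at least 1 FPKM, a minimum reached by 14347 genes besides any 1 member, with 11136 genes called. This share is larger than 58.2%, so that 9 of 10 is not read as an excess. The exception was Ctcf, the insulator protein that binds between H19 and Igf2, with 36.1 ± 1.22 FPKM (adjusted p = 0.106). Trim28, a co-repressor that keeps imprints methylated, was at 201 ± 18.9 FPKM and ranged by 0.31. The chromatin protein gene Arid4b was at 31.0 ± 3.22 FPKM.

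Summed marker levels also differed between the samples. The label names spermatocytes, and 13 markers of meiotic prophase summed to 454 FPKM in 186wt, 382 in 343wt, 632 in 444wt and 436 in 456wt. The 11 markers of Sertoli cells, the somatic nurse cells of the tubule, summed to more, with 4803, 4972, 2789 and 2963 FPKM in the same order. All markers of both lists were above 1 FPKM on average, and Prm2 of the 7 round spermatid markers, which summed to 2.91 to 4.66 FPKM, was listed at 0. In such bulk samples fewer cells of a type and less RNA per cell cannot be told apart.

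The 8 spermatogonia markers summed to 573 FPKM in 186wt, 600 in 343wt, 719 in 456wt and 791 in 444wt. H19, Igf2, Cdkn1c and Plagl1 had this same order of the 4 samples, as did 10.9% of all genes tested. The order of Dlk1 and Meg3, with 186wt lowest and 343wt highest, was that of no marker list and of 1.45% of genes. Among neighbouring numbers only the step up from 186wt was called for Dlk1, Meg3, Igf2, Cdkn1c and Plagl1. The order of the higher numbers was thus not resolved for these genes. The order of Peg3 was that of the Sertoli and Leydig sums and of 6.39% of genes. The 8 Leydig markers summed to 124 FPKM in 186wt, 176 in 343wt, 66.4 in 444wt and 107 in 456wt. Many single markers did not have the order of these sums. In the Sertoli list only Clu, its largest term, Gata4 and Inha had it. In the Leydig list only Nr5a1, its largest term, Cyp17a1, Lhcgr and Star had it. Nr5a1 alone made up 60.65 of the 124 FPKM of the Leydig sum in 186wt. Sox9 and Wt1 were lowest in 456wt, and Hsd17b3 was highest in 444wt. Cyp11a1, Hsd3b1 and Insl3 were higher in 456wt than in 186wt.

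Grb10 had the order of the sum of 7 fibroblast and interstitial markers, with 306, 357, 369 and 1027 FPKM in 186wt, 343wt, 444wt and 456wt. The sum of 5 red blood cell markers, with 28.5, 73.1, 90.1 and 164 FPKM, had it as well. Of the 7 single fibroblast and interstitial markers only Col1a1 and Col1a2 had it, though all 7 were highest in 456wt. Of the 5 red blood cell markers only Alas2 did not have this order. The round spermatid list had this order too, as did 7.68% of all genes tested. Its small sums overlapped between the libraries of 343wt, 444wt and 456wt, however. The 7 peritubular myoid markers summed to 828, 414, 1030 and 1691 FPKM, the 7 endothelial markers to 24.1, 28.9, 19.9 and 47.5 FPKM and the 7 macrophage markers to 17.4, 34.9, 8.33 and 26.6 FPKM. Igf2r was lowest in 343wt, as were the peritubular myoid and meiotic prophase lists and 34.2% of all genes tested. With 4 samples an order is a description, and the part of other cell types in each result was not tested.

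**Figure D5:**
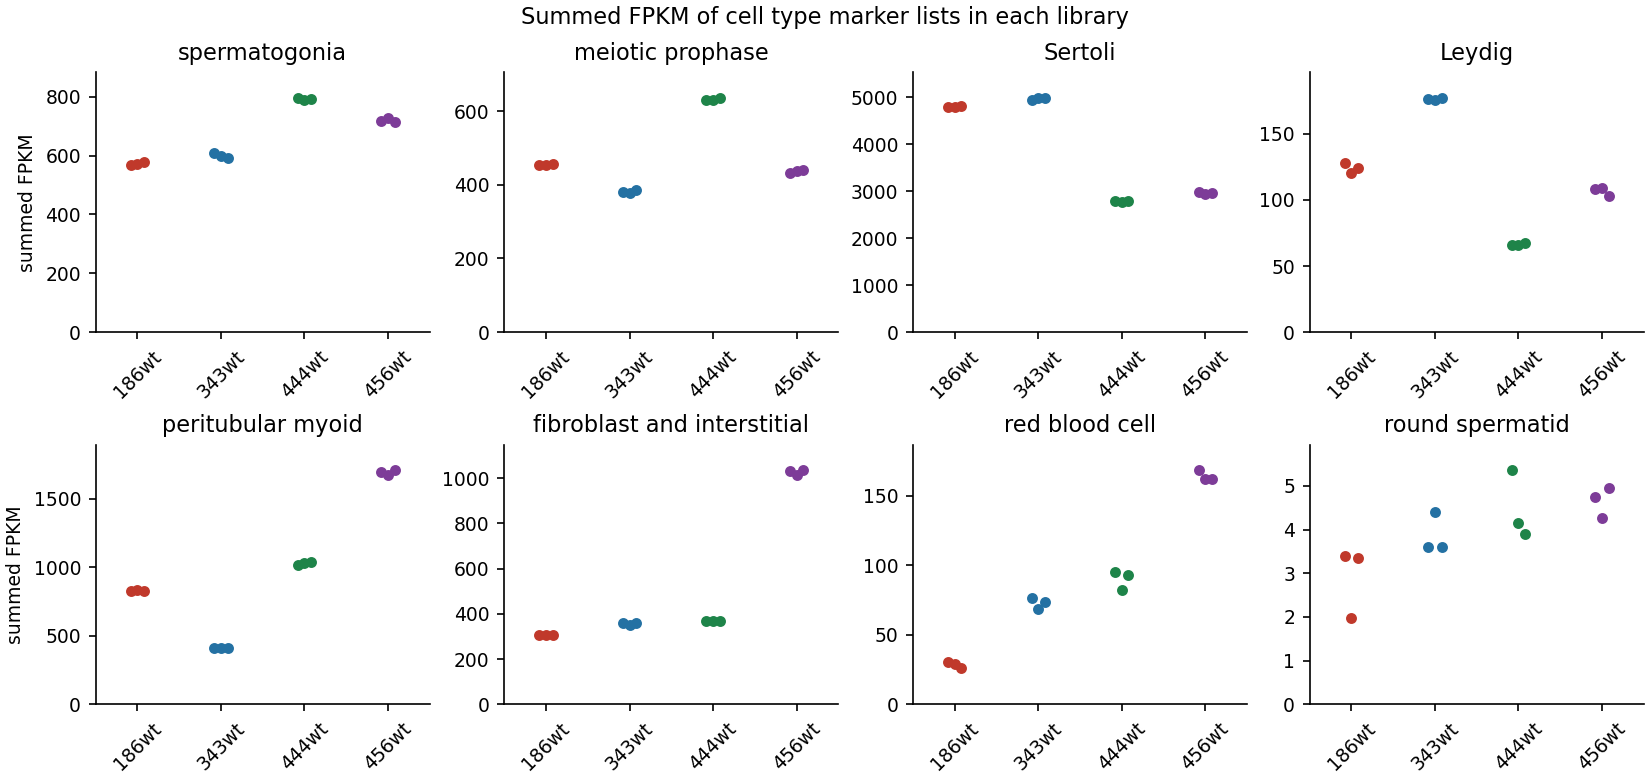
Summed FPKM of 8 marker lists (vertical axes, from 0) in each library by sample number. The Sertoli list is higher in 186wt and 343wt, the spermatogonia list is higher in 444wt and 456wt, and the fibroblast and interstitial list is highest in 456wt at 1027 FPKM.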

How the data were processed

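RNA-seq was available for 12 libraries of germ cells enriched from 12-dpp B6 testes by collagenase and trypsin digestion. The authors aligned paired reads with Bowtie 0.12.9 to the NCBI build 37 (mm9) transcriptome, removed reads with several mismatches and computed the deposited FPKM with RSEM 1.2.8, which shares reads among transcripts they fit equally well. A strand setting is not given in the sources used here. The deposited FPKM have 2 decimals, no column of values was left unused, and sums per library were 477629 to 485096 FPKM. ChIP-seq, Affinity-seq and input samples were not analysed here.

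Columns were matched to samples by name. Genes were placed with GENCODE M1, which held 37205 of 37620 identifiers. Genes whose mean reached 0.1 FPKM were tested on log2(FPKM + 0.1) with limma 3.58.1 in R 4.3.3 (lmFit, eBayes with trend, moderated F-test over 4 sample numbers, Benjamini-Hochberg adjustment over all genes). Pair contrasts were adjusted over all genes within a pair. Log ratios of members were compared by exact permutation of the between-number sum of squares. Other values used Python 3.11.15, numpy 2.4.6, pandas 2.3.3 and scipy 1.17.1, and plots matplotlib 3.10.9. The tests were checked on simulated data. Depth, estimated from the steps of low FPKM values, was 13.0 to 17.9 M fragments per library. A gene of 1 kb with 3 fragments over all libraries would have 0.0166 FPKM.

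The members, gene lists and marker lists were chosen with earlier results of these data known. Named genes were the members, the 4 highest of each list, genes in a member's region, those at 0 and the 3 most like the 4 members of widest range. A gene that this rule covers is not reported here. Alternatives were pseudocounts of 1 and 0.01, no filter, a minimum of 1 FPKM, 2 rescalings, a block for library number, and leaving out each library or sample number.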

Additional observations from a re-analysis of the deposited data

Results flagged for a closer look

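Among 31 values compared over the 4 sample numbers (the members, their 3 ratios and the other tested genes of their regions), 2 had 1 number far from the other 3 by Dixon's gap test, where chance gives about 1 in 20, or 1.55 of 31, so that 2 is near what chance gives. Igf2r was set apart by its low 17.1 FPKM in 343wt. Airn, antisense to Igf2r, was set apart by its high 1.95 FPKM in 456wt, although it did not pass the test across numbers.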

How the results depend on the processing

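Across the alternatives 9 of 10 members were called in most fits, with 7 to 10 when a sample number or library was left out. Without 186wt, 5 of 20 neighbouring pairs of members were called, where 11 of 30 were called with all numbers, as were 20.8% of such pairs over all genes. Leaving out a library gave 9 to 12 of 30 such pairs of members, and leaving out a number gave 5 to 12 of 20. A minimum of 1 FPKM gave 13 of 30, and rescaling to equal medians gave 14 of 30. Leaving out libraries or numbers gave ranges of 0.26 to 0.69 on the log2 scale for the ratio of H19 to Igf2. This range was lowest, and the ratio no longer called, without 444wt (exact permutation p = 0.0679). Meg3 and Plagl1 were lost without 186wt, Igf2r and Peg3 without 343wt, and Mest was called without 456wt or without its second library (adjusted p = 0.0366 and 0.0299). Fewer samples entered these fits. Library numbers did not pair the samples (correlations of deviations from -0.06 to 0.13 over 18 pairs), and with a replicate block 9 members, 10 neighbouring pairs and 11774 genes were called. Rescaling each library to the same larger total raised all member means, to 87.0 FPKM for Dlk1 for example, because the deposited FPKM sum to less. Values near the 0.1 FPKM minimum rest on few fragments at this depth.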
